A study of Mus musculus with 3 samples.

Results

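Genes of red cell formation were measured in 3 splenic tumours of mice, on 1 array per tumour. The set was a list of 35 genes, chosen with earlier results of these data known. It held erythroid transcription factors, enzymes and carriers of haem synthesis, parts of the red cell membrane and its skeleton, and other red cell proteins. A gene was taken when a probe's RefSeq transcript belonged to it, which gave 34 of the 35 among the 22908 genes that could be named on the array. Ahsp is not analysed here. Of these 34 genes, 33 were well above background on all 3 arrays. The remaining gene, the β-spectrin gene Sptb, has 1 probe, which was not well above background on any array.

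The tumours came from untreated male mice, 10 weeks old per the labels, and all carried the p53+/− genotype. That genotype alone was represented by 1 tumour (the p53 tumour) and LSD1 × p53+/− by 2, which the titles number #2 and #3 (tumour #2 and tumour #3, together the LSD1 tumours). LSD1 is a histone demethylase. The labels do not give the strain, what the LSD1 element is, in which cells it acts, or whether the numbers stand for single mice or for lines. They name the tissue splenic tumour but also speak of isolated splenic cells, and state no pooling. Nothing says that the LSD1 tumours came from separate lines, so p-values measure only the spread between these samples. A level here is the log2 of a probe's signal over the 75th percentile of its array, so a difference of 1 is a 2-fold difference. Slide 1 held the p53 tumour and tumour #3, slide 2 held tumour #2. Of the spots that were not controls, 51.5% to 55.6% were well above background per array, and none was saturated. The transcription factor genes Tlx1 and Nkx2-5, which mark splenic stroma, and the T cell gene Cd3e were above background in all 3 tumours.

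Red cells form from progenitors that respond to erythropoietin and switch on a programme run largely by GATA1 and KLF1. The maturing cells take up iron through the transferrin receptor, build haem in a chain of enzymatic steps shared between mitochondria and cytosol, and lay down a spectrin skeleton under a membrane rich in the anion exchanger and blood group proteins. In mice the red pulp of the spleen is a site of red cell formation throughout life.

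The members were higher in tumour #3 than in both other tumours, and most were lower in tumour #2 than in the p53 tumour. All 33 measured members were higher in tumour #3 than in tumour #2 (55.7% of the 15240 tested genes), and 30 of the 33 were at least 2-fold higher, where 14.0% of all tested genes were. Against the p53 tumour, 30 of 33 were at least 2-fold higher in tumour #3 (15.1% of all tested genes). By any amount all 33 were higher there (58.0% of all tested genes), or 32 with quantile normalization or the authors' values, under which Hemgn was lower. In tumour #2, 6 of 33 were higher than in the p53 tumour by any amount (52.8%). In tumour #2, none of the 33 was at least 2-fold higher than in the p53 tumour (11.6% of all tested genes) and 1 was at least 2-fold lower (11.5%). The median difference between tumours #3 and #2 was 1.81 over the members and 0.10 over all tested genes. From the p53 tumour it was 1.49 for tumour #3 and -0.35 for tumour #2, where all tested genes had 0.16 and 0.05. In bulk RNA, more cells of a type and more RNA per cell cannot be told apart. Each of these values compares 1 array with 1 array and has no replicate check. Since the members were chosen with earlier results of these data known, the shares beside their counts are a description only.

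**Figure D1:**
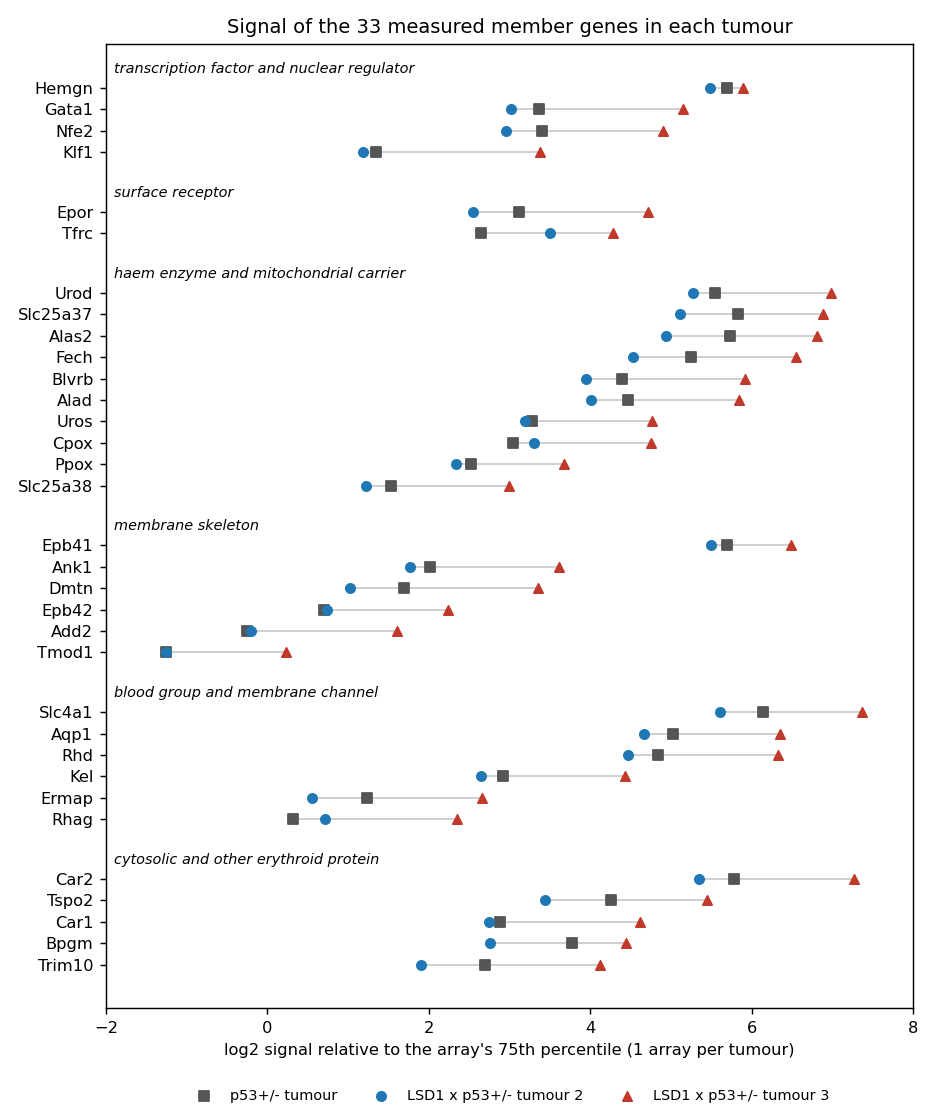
Log2 signal relative to the array's 75th percentile (x axis) of the 33 members above background, grouped by role, in the p53 tumour (squares), tumour #2 (circles) and tumour #3 (triangles), 1 array each. tumour #3 is rightmost in every row, and positions are to be compared within a row only, since probes differ in brightness.

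No genotype difference of a member passed the test. No member was at least 2-fold higher in both LSD1 tumours (3.46% of all tested genes) and none was at least 2-fold lower in both (5.40%). By any amount, 6 of 33 were higher in both (38.7% of all tested genes) and 0 lower in both (27.9%). Limma called 0 of 33 members at an adjusted p of 0.05, as it called 0.00% of all tested genes. With 1 array against 2 an exact permutation over arrays cannot go below p = 0.333. The 6 members that were higher in both were Tfrc, Rhag, Cpox, Add2, Epb42 and Tmod1, with differences between 0.00 and 0.86 in tumour #2. By their other probes, Add2 and Tmod1 were lower in tumour #2 than in the p53 tumour (-0.27 and -0.10). Under the authors' scaling 3 members exceeded the p53 tumour in tumour #2. With quantile normalization 5 did, and with the median over the probes of a gene 4.

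**Figure D2:**
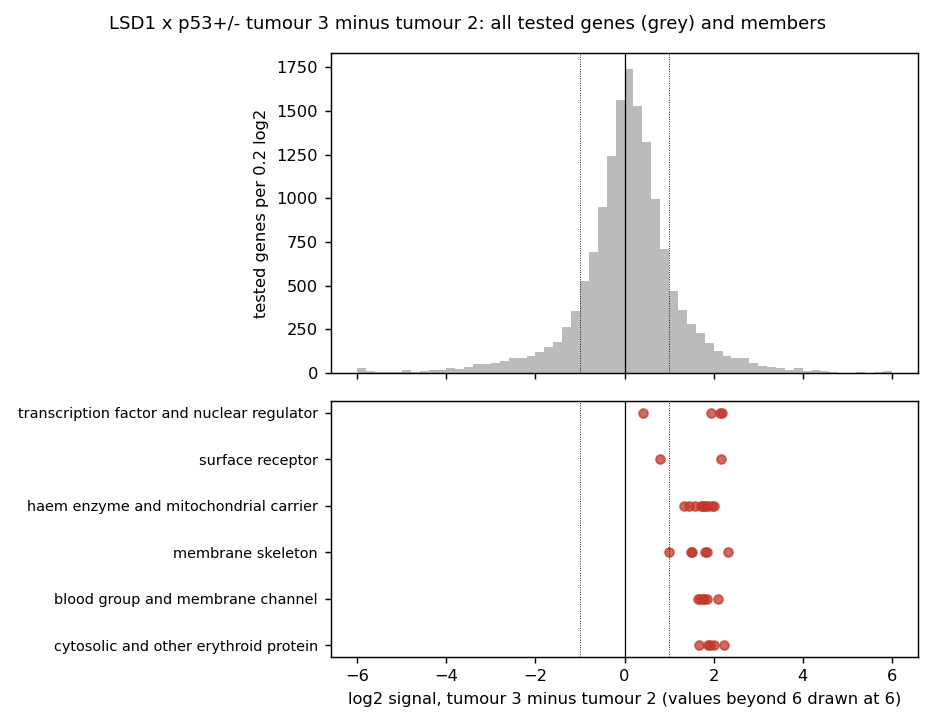
Top, number of tested genes by the log2 difference tumour #3 minus tumour #2, with dotted lines at 2-fold. Bottom, the same difference for each measured member by role; the members lie between 0.41 and 2.32, with all haem, blood group and cytosolic members beyond the 2-fold line.

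The transcription factors and nuclear regulators were led by Klf1 and Gata1. Klf1 encodes the zinc finger factor that activates the adult β-globin gene and many red cell membrane genes. Its level was 1.35 in the p53 tumour, 1.18 in tumour #2 and 3.38 in tumour #3. tumour #3 was thus 4.08-fold above the p53 tumour and 4.58-fold above tumour #2, while the other tumours differed by 1.12-fold. The other Klf1 probe gave 2.55 log2 between the LSD1 tumours. Gata1, the X-linked master factor of red cells, megakaryocytes and mast cells, stood at 3.36, 3.02 and 5.15 in the same order of tumours, and was 4.40-fold higher in tumour #3 than in tumour #2. Nfe2, a leucine zipper factor of red cells and platelets, stood at 3.40, 2.96 and 4.90 and was 3.84-fold higher. For all 3 factors tumour #3 was the high sample and the p53 tumour lay close to tumour #2.

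Hemgn, a nuclear protein of blood progenitors and erythroblasts, depended on the probe. Its brighter probe read 5.70, 5.48 and 5.89, a difference of 0.41 between the LSD1 tumours. Its dimmer probe read 2.21, 1.67 and 3.87, a difference of 2.20. By the brighter probe tumour #3 exceeded the p53 tumour by 0.20, and this sign turned under quantile normalization and under the authors' scaling. Both probes carry the same transcript accession.

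The promoters of some members are shown because GATA1 and KLF1 act through short motifs. GATA factors act on AGATAA or TGATAA, and KLF1 on CACC boxes such as CACACCC. RefSeq promoter windows (GRCm38.p6) were matched for 26 of the 35 members, and the 250 bases before the start site were searched on both strands. AGATAA or TGATAA occurred in 12 of 26 members (46.2%) and in 18.8% of 27025 genes with a window. CACACCC occurred in 4 of 26 (15.4%) against 7.90% of all genes, and both kinds together in 3 members, Klf1, Cpox and Trim10, against 1.07% of all genes. CAGNTG, the E-box that TAL1 binds, occurred in 46.2% of members and 48.2% of all genes, and TGAGTCA, the core of the NFE2 motif, in 7.69% and 5.16%. These matches are letters in a window, and no binding was measured. They depend on the list of genes and not on any array value, and their part in the differences was not tested. In the sequences, written 5′ to 3′ on the gene's own strand up to the base before the start site, capitals mark these GATA and CACACCC letters or their reverse complements.
Klf1 promoter (chr8:84901732-84901981, plus strand): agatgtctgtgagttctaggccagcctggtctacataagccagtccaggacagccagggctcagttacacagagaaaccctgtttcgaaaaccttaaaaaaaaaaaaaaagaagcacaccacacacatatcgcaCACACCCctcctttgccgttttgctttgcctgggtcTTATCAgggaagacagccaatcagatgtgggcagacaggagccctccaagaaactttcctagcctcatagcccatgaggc
Gata1 promoter (chrX:7967911-7968160, minus strand): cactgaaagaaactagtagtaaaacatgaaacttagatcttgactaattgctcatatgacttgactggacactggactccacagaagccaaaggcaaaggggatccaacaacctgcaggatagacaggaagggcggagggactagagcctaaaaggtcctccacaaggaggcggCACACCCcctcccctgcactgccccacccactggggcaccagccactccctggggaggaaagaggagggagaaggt
Epor promoter (chr9:21963577-21963826, minus strand): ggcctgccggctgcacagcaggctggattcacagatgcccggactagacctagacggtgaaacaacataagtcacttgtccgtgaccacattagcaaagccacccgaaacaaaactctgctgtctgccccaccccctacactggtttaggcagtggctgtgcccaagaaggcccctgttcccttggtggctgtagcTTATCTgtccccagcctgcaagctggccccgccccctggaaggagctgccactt
Alas2 promoter (chrX:150547167-150547416, plus strand): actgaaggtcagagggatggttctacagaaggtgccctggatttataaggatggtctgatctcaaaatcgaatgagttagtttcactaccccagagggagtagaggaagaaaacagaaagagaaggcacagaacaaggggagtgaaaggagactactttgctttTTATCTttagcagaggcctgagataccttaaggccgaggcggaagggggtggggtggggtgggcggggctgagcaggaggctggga
Kel promoter (chr6:41704326-41704575, minus strand): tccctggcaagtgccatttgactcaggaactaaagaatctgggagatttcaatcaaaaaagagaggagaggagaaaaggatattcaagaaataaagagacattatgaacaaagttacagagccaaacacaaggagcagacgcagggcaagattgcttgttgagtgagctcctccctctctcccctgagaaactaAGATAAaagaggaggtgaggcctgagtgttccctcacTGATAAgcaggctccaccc
The Klf1 window holds TTATCA 80 bases and CACACCC 116 bases before the start site, counted at each motif's 5′ end, and the Gata1 window holds CACACCC 76 bases before it. TTATCT lies 54 bases before the Epor start and 86 bases before the Alas2 start. The Kel window holds AGATAA 56 bases and TGATAA 19 bases before its start. The other members with such a GATA match were Hemgn, Uros, Cpox, Epb42, Rhag, Rhd, Ermap and Trim10. All windows shown hold a marked match, so they do not stand for the 26. Others, such as those of Tspo2 and Tfrc, hold neither the GATA nor the CACACCC letters.

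The receptors for the hormone and for iron differed from each other. Epor, the erythropoietin receptor, stood at 3.11 in the p53 tumour, 2.55 in tumour #2 and 4.72 in tumour #3. It was 4.48-fold higher in tumour #3 than in tumour #2, and its other probe gave 2.11 log2 against 2.16. Tfrc, the transferrin receptor, which all dividing cells use for iron, stood at 2.64, 3.50 and 4.29. It was the member furthest above the p53 tumour in tumour #2, by 1.81-fold, and was 3.12-fold above it in tumour #3. Its genotype difference of 1.25 (limma, SE 0.61) had an adjusted p of 0.966, which lay between 0.589 and 0.974 over the settings tried. Its dimmer probe gave 0.64 and 1.08 for the same differences.

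Beside Tfrc, genes of G2 and mitosis were also higher in both LSD1 tumours. All 20 listed were higher in each, by a median of 0.89 for tumour #2 and of 1.71 for tumour #3. Their summed signal, in units of the array's 75th percentile, was 148 in the p53 tumour, 240 in tumour #2 and 455 in tumour #3. Ccnb1, the mitotic cyclin, and Mki67 were 3.16-fold and 2.33-fold higher in tumour #3 than in tumour #2. Their part in the Tfrc difference was not tested.

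The haem members were all higher in tumour #3. Its 10 members, with the mitochondrial carriers and biliverdin reductase B, were between 2.54-fold and 4.04-fold higher in tumour #3 than in tumour #2, and between 2.06-fold and 3.27-fold higher than in the p53 tumour. Alas2, the erythroid form of the enzyme that starts the pathway, stood at 5.72 in the p53 tumour, 4.94 in tumour #2 and 6.81 in tumour #3. It was 3.66-fold higher in tumour #3 than in tumour #2, and 1.72-fold lower in tumour #2 than in the p53 tumour. The housekeeping form Alas1, no member, read 2.24, 2.77 and 2.47, so its order of tumours was another, and its 3 probes gave -0.42 to -0.28 between the LSD1 tumours. Alad, which joins the products of that step into a pyrrole, stood at 4.46, 4.01 and 5.84. Uros, which closes the porphyrin ring, stood at 3.28, 3.18 and 4.77. Urod, which removes carboxyl groups from the ring, stood at 5.55, 5.27 and 6.98. In Alas2, Alad, Uros and Urod tumour #3 was the high sample by more than 2-fold and tumour #2 the lowest by the probes used. For Uros, tumour #2 differed from the p53 tumour by -0.09 only, and its dimmest probe gave 0.19 for that difference.

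The late steps showed the same order with Cpox as the exception. Cpox, an oxidase between the mitochondrial membranes, stood at 3.04 in the p53 tumour, 3.30 in tumour #2 and 4.75 in tumour #3, with tumour #2 above the p53 tumour by 0.26. Ppox, the next oxidase, stood at 2.53, 2.33 and 3.68 and had the smallest difference of the pathway between the LSD1 tumours (1.35). Fech, which inserts the iron, stood at 5.24, 4.53 and 6.54 and had the largest (2.01). Slc25a37, the mitochondrial iron importer mitoferrin, stood at 5.83, 5.11 and 6.88. Slc25a38, a mitochondrial glycine carrier that feeds the pathway, stood at 1.53, 1.22 and 2.99. Blvrb, a flavin and biliverdin reductase abundant in red cells, stood at 4.39, 3.95 and 5.92.

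Membrane skeleton genes differed by a median of 1.66 between the LSD1 tumours over 6 measured members. Dmtn, the actin-bundling protein dematin, stood at 1.69 in the p53 tumour, 1.03 in tumour #2 and 3.35 in tumour #3, the largest difference of any member between the LSD1 tumours (4.99-fold). Ank1, the ankyrin that ties spectrin to the anion exchanger, stood at 2.02, 1.76 and 3.61. Add2, a cap of actin filaments, stood at -0.25, -0.20 and 1.61, and was 3.62-fold above the p53 tumour in tumour #3. Epb42, a partner of the anion exchanger, stood at 0.70, 0.74 and 2.24, and Tmod1, which caps the other end of actin filaments, at -1.26, -1.25 and 0.23. By the probes used, tumour #2 differed from the p53 tumour by 0.05, 0.04 and 0.00 in Add2, Epb42 and Tmod1. The other Add2 and Tmod1 probes gave -0.27 and -0.10 for that difference. In these 3 genes tumour #3 was again the only high sample. Epb41, a linker of spectrin and actin, read 5.70, 5.49 and 6.48 by its brightest probe, 1.99-fold between the LSD1 tumours. Its other 3 probes above background gave 0.63 to 1.67.

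Among blood group and channel proteins of the membrane, Slc4a1, the anion exchanger that carries bicarbonate, stood at 6.14 in the p53 tumour, 5.61 in tumour #2 and 7.37 in tumour #3. Rhd, the mouse Rh polypeptide, stood at 4.84, 4.47 and 6.32, and Kel, a surface endopeptidase, at 2.91, 2.64 and 4.43. Both differed between the LSD1 tumours by about the members' median, at 1.86 and 1.79. Rhag, the ammonium channel that carries the Rh complex to the surface, stood at 0.32, 0.71 and 2.35. Rhag was 4.09-fold above the p53 tumour in tumour #3, the largest such difference of any member, and 1.31-fold above it in tumour #2 (limma difference 1.21, SE 0.92, adjusted p = 0.966, range 0.624 to 0.974 over the settings). Aqp1, the water channel, stood at 5.02, 4.67 and 6.35. Ermap, a surface protein of the immunoglobulin family, stood at 1.23, 0.56 and 2.66, a difference of 2.10, and its other probe gave 0.81. The 6 genes of this group lay between 1.64 and 2.10, the narrowest range of the role groups with more than 5 members measured.

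Of the remaining members, Car2, a carbonic anhydrase shared with many tissues, stood at 5.78 in the p53 tumour, 5.35 in tumour #2 and 7.26 in tumour #3, and Car1, its red cell relative, at 2.89, 2.74 and 4.62. They were 3.77-fold and 3.67-fold higher in tumour #3 than in tumour #2. Trim10, an E3 ligase family member of erythroblasts, stood at 2.69, 1.90 and 4.12, and Tspo2, an erythroid membrane protein, at 4.25, 3.44 and 5.45. Bpgm, the mutase that makes the phosphate ester by which red cells adjust oxygen release, stood at 3.77, 2.76 and 4.44. It was the only member at least 2-fold lower in tumour #2 than in the p53 tumour (2.02-fold), and was 1.59-fold above the p53 tumour in tumour #3.

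The members differed little among themselves. The quartiles of their differences between the LSD1 tumours were 1.64 and 1.97, against -0.42 and 0.62 for all tested genes. Of the 33, 30 lay at or above the 90th percentile of all tested genes. Over single probes, 53 of 56 were above background on all arrays, and 53 of 53 were higher in tumour #3 than in tumour #2, 47 of them at least 2-fold. These include the probes already counted and were read on the same arrays, so they add no replicate. In 15 members more than 1 probe was above background on all arrays. The gap between their probes had a median of 0.34, and 5 members had a gap above 0.5, with Hemgn, Ermap and Epb41 the widest. The members below the 2-fold line were Epb41 (0.99), Tfrc (0.78) and Hemgn (0.41), and the lowest of those above it was Ppox (1.35).

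**Figure D3:**
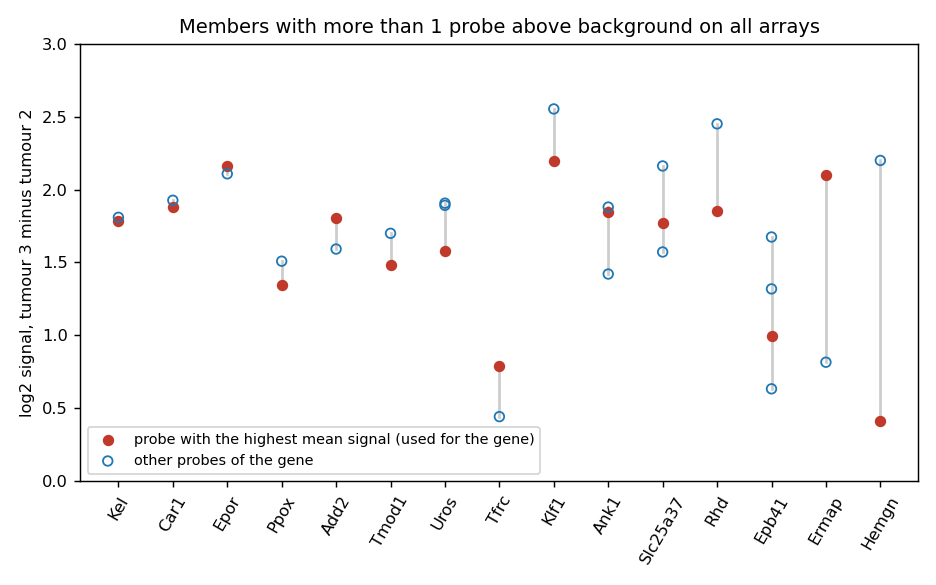
Log2 difference tumour #3 minus tumour #2 (y axis) by probe, for the 15 members with more than 1 probe above background on all arrays, ordered by the gap between probes. Filled points are the brightest probe, open points the others; every probe lies above 0, and Hemgn has the widest gap, from 0.41 to 2.20.

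The globin chains, the main product of the same cells, differed less in their brightest probes. Hba-a1, an adult α chain, read 9.27 in the p53 tumour, 8.72 in tumour #2 and 9.44 in tumour #3, a difference of 0.72 between the LSD1 tumours, and 0.29 by its other probe. Hba-a2 differed by 0.34, and the adult β chains Hbb-bt, Hbb-b2 and Hbb-b1 by 0.48, 0.81 and 1.46. These chains are near-identical copies, so their probes may read one another. The Hba-a1 probe had a linear signal of 380525 in tumour #3, where the brightest spot on that array had 426569 and no spot was flagged as saturated. Whether such probes still respond in proportion was not tested.

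Among the dimmer globin probes, the θ chains Hbq1a and Hbq1b were 4.88-fold and 4.69-fold higher in tumour #3 than in tumour #2. The embryonic chain Hbb-y was above background in tumour #3 alone, at least 2.71-fold above the p53 tumour and at least 2.10-fold above tumour #2. The embryonic chains Hba-x and Hbb-bh1 were highest in the p53 tumour instead. Hba-x was above background there alone, by at least 1.21-fold over tumour #2 and 1.22-fold over tumour #3. The p53 tumour exceeded tumour #2, where Hbb-bh1 was not above background, by at least 2.55-fold, and tumour #3 by 1.80-fold. Hbb-bh2 was not above background on any array. The bound of each fold is the higher of the probe's own signal and the dimmest signal still well above background on that array.

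Other genes of the pathway followed in part. For scale, 55.7% of all tested genes were higher in tumour #3 than in tumour #2, and 14.0% at least 2-fold. Of 22 further transcription factors of blood cells, 18 were higher in tumour #3 than in tumour #2 and 14 at least 2-fold, with a median of 1.29. Gfi1b and Zfpm1, partners of GATA1, were 4.17-fold and 3.86-fold higher, and Lyl1, a relative of TAL1, was 4.87-fold higher. The other Zfpm1 probe gave 0.76 log2. Below the p53 tumour in tumour #2 stood Lyl1, Klf3 and Cbfa2t3, by 3.19-fold, 3.14-fold and 2.87-fold. Myb, a factor of progenitors, exceeded the p53 tumour by 0.43 and 1.33 in tumours #2 and #3 (0.01 and 0.41 by another probe), and Ikzf1, a lymphoid factor, was the only factor at least 2-fold lower in tumour #3 than in tumour #2 (2.23-fold).

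Of 20 further genes of haem synthesis, transport and breakdown, 16 were higher in tumour #3 than in tumour #2 and 11 at least 2-fold, with a median of 1.23. Abcb6, a porphyrin transporter, was 3.29-fold higher. Abcg2, an exporter of porphyrins, stood 3.20-fold above the p53 tumour in tumour #3 and 1.22-fold above it in tumour #2. Hmox1, which breaks haem down and is abundant in red pulp macrophages, was 3.47-fold higher in tumour #3 than in tumour #2, and the haem-related transporter gene Flvcr2 at least 1.32-fold.

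Of 29 further membrane, skeleton and blood group genes measured, 24 were higher in tumour #3 than in tumour #2 and 15 at least 2-fold, with a median of 1.05. Tmcc2 and Icam4, the Landsteiner-Wiener blood group protein, were 4.14-fold and 4.13-fold higher. Aqp3 and Add3 went the other way, at least 3.92-fold and 2.42-fold lower in tumour #3 than in tumour #2. Aqp9, a glycerol channel, was higher in both LSD1 tumours, by 0.65 in #2 and 1.35 in #3.

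Genes of late maturation, such as organelle removal and ubiquitin-linked clearance, followed most closely. Of 28 measured, 26 were higher in tumour #3 than in tumour #2 and 22 at least 2-fold, with a median of 1.45. Ypel4 and the tight junction gene Cldn13 were 5.79-fold and 5.53-fold higher, and Btnl10 4.29-fold. The exonuclease gene Isg20 and the pyrimidine nucleotidase gene Nt5c3 were 3.20-fold and 2.77-fold above the p53 tumour in tumour #3 and lay within 0.23 of it in tumour #2.

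The lists of erythropoietin signalling and of red cell metabolism were less uniform in direction between the LSD1 tumours. Of 13 measured genes of erythropoietin signalling, 7 were higher in tumour #3 than in tumour #2, 3 of them at least 2-fold, and 2 were at least 2-fold lower, with a median of 0.03. Socs3, a feedback inhibitor of many cytokine receptors, was 6.81-fold higher there, while the immediate early gene Egr1 was 3.58-fold lower. Erfe, the erythroid hormone that lowers hepcidin, was not above background in the p53 tumour and was at least 12.0-fold and 6.45-fold above it in tumours #2 and #3. Erfe was thus higher in tumour #2 than in tumour #3 (1.87-fold), and its dimmer probe was well above background in no tumour. Cish, a target of STAT5, was likewise highest in tumour #2, 3.21-fold and 1.62-fold above the p53 tumour. Spred2 was 2.80-fold above it in tumour #2 by 1 probe, and its other probe gave -0.51 log2. Gab1, an adaptor of receptor signalling, was above background in tumour #3 alone, at least 2.31-fold over the p53 tumour. Of 21 genes of red cell glycolysis and antioxidant defence, 14 were higher in tumour #3 than in tumour #2, 7 of them at least 2-fold, and 0 were at least 2-fold lower (median 0.40). Over the p53 tumour 19 of 21 were higher in tumour #3 (58.0% of all tested genes), 9 of them at least 2-fold (15.1%), with a median of 0.86. In tumour #2, 12 were higher (52.8%), 5 of them at least 2-fold (11.6%), with a median of 0.23. The largest differences between the LSD1 tumours were those of Pklr, the pyruvate kinase of liver and red cells (at least 3.41-fold), Gclm, a subunit of the enzyme that starts glutathione synthesis (3.19-fold), and the peroxiredoxin gene Prdx2 (2.94-fold). Tpi1, Gapdh and Pgam1, glycolytic enzymes of most cells, were higher in both LSD1 tumours than in the p53 tumour, Tpi1 by 3.69-fold in #2 and 2.96-fold in #3, Gapdh by 2.90-fold and 2.44-fold and Pgam1 by 2.77-fold and 1.82-fold. Of the whole list 2 genes were at least 2-fold higher in both, and Gpi1, another glycolytic enzyme, differed from the p53 tumour by -0.04 in tumour #3.

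**Figure D4:**
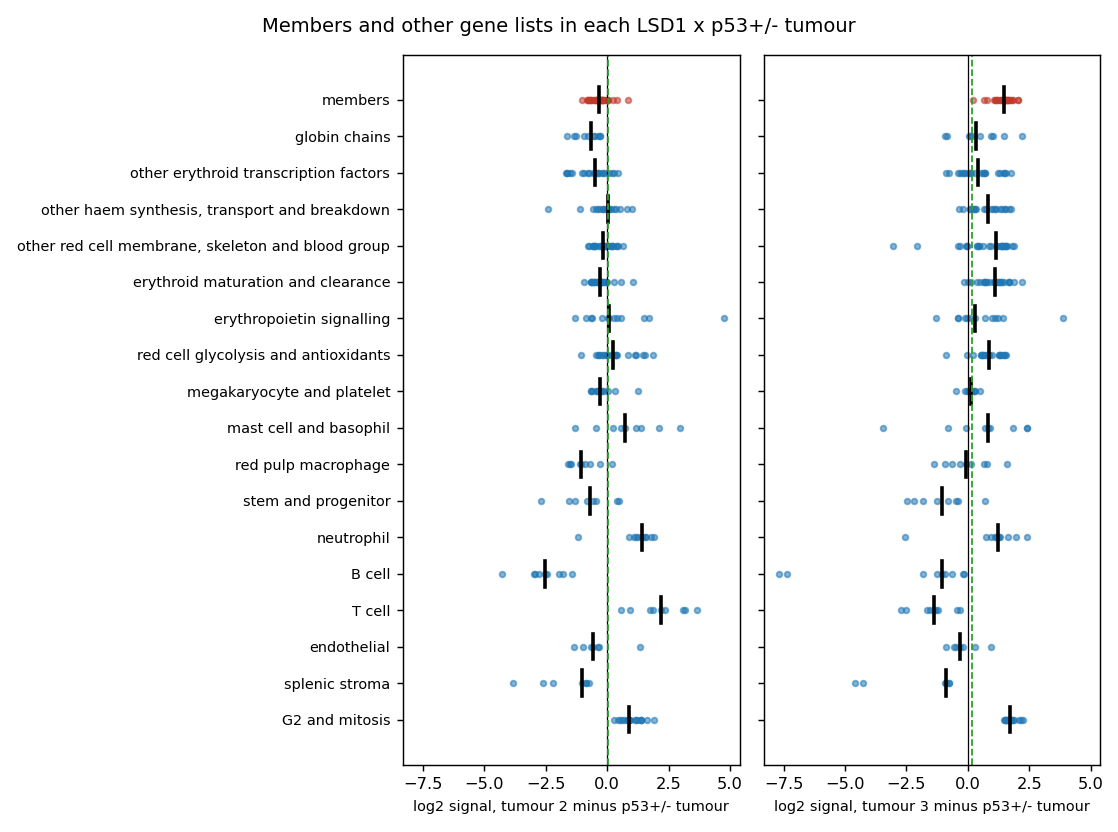
Log2 difference from the p53 tumour in tumour #2 (left) and tumour #3 (right) for each gene (points) of the members and of the other lists, with list medians as black bars and the median of all tested genes as a dashed line. Members lie around -0.35 on the left and 1.49 on the right; both panels share the p53 array.

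Markers of other cells moved as well between the LSD1 tumours, and their part in the members' differences was not tested. Megakaryocytes share Gata1 and Nfe2 with red cells, but their 12 markers had a median of 0.41 between the LSD1 tumours, 10 higher and 1 at least 2-fold (Gp9, a subunit of the von Willebrand receptor, 2.18-fold), while the integrin gene Itgb3 was 3.31-fold lower. All 12 were above background on every array, and their summed signal was 40.6 in the p53 tumour, 40.9 in tumour #2 and 42.4 in tumour #3. That sum includes Itgb3, which stood at 2.44, 3.68 and 1.96, opposite in direction to most of the list. The median difference of the 12 from the p53 tumour was -0.31 in tumour #2 and 0.11 in tumour #3. Mast cell and basophil markers, which also accompany Gata1, had a median of 0.13 with 5 of 9 higher, and a summed signal of 3.11, 5.75 and 4.17. Their largest differences were those of Cma1, a mast cell chymase, at least 3.51-fold lower in tumour #3 than in tumour #2, and of Hdc, which makes histamine, 2.42-fold lower. Mcpt8 and Prss34 went the other way, 2.40-fold and 2.05-fold higher in tumour #3 than in tumour #2. Of the 9 markers, 2 were at least 2-fold higher there and 3 at least 2-fold lower. Of 9 red pulp macrophage genes 6 were at least 2-fold higher in tumour #3 than in tumour #2, Cd5l by 6.38-fold and Hmox1 by 3.47-fold, and 1 at least 2-fold lower, Cd163 by 3.02-fold. Their summed signal was 224, 122 and 286. T cell genes ran the other way, all 9 at least 2-fold lower in tumour #3 than in tumour #2 and with a summed signal of 48.9, 214 and 22.8. The T cell factor Gata3 was 72.8-fold lower there and the adaptor Trat1 at least 32.5-fold. Of 9 B cell genes 5 were at least 2-fold higher in tumour #3 than in tumour #2 and 2 at least 2-fold lower, with a summed signal of 271, 40.6 and 143. The lower ones were the IgE receptor gene Fcer2a, at least 28.4-fold, and the complement receptor gene Cr2, 8.37-fold. Stem, mast and lymphocyte markers not above background were Mecom on any array, Cpa3 in the p53 tumour, and Cma1, Hlf, Fcer2a and Trat1 in tumour #3. Neutrophil genes were higher in both LSD1 tumours than in the p53 tumour in 10 of 11, at least 2-fold in 8, and their summed signal was 150 in the p53 tumour, 305 in tumour #2 and 282 in tumour #3. Between the LSD1 tumours the largest differences among them were those of Cxcr2, 2.61-fold lower in tumour #3, and Prtn3, 1.48-fold higher. All 7 splenic stroma genes were lower in both LSD1 tumours than in the p53 tumour, with a summed signal of 40.0, 7.24 and 6.45. Between the LSD1 tumours the chemokine genes Ccl21a and Ccl19 differed most, 3.85-fold lower and 2.41-fold higher in tumour #3. Of 7 endothelial genes 5 were lower in both LSD1 tumours than in the p53 tumour, with a summed signal of 31.1, 18.6 and 29.8. Egfl7 and Kdr, both endothelial, were 1.82-fold and 1.71-fold higher in tumour #3 than in tumour #2. Of the 7 endothelial genes, 5 were higher and 2 lower there, with 0 at least 2-fold apart in either direction. The members' own summed signal was 661, 493 and 1565. Of 8 measured stem and progenitor genes 3 were higher in tumour #3 than in tumour #2 (median -0.13), with a summed signal of 8.21, 5.24 and 4.44. Gata2, a factor of progenitors, was 2.41-fold higher and Hlf at least 1.46-fold lower there, and Kit, the stem cell factor receptor of early erythroid cells, was lower than in the p53 tumour in both, by 2.50-fold and 1.76-fold.

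The excess in tumour #3 over the p53 tumour was measured within slide 1, where the members' median was 1.49. The difference between the LSD1 tumours spans both slides, and the part of slide or scan in it was not tested.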

How the data were processed

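Cy3-labelled cRNA was made from total RNA, per the labels' protocols, and read on Agilent mouse arrays of 62976 spots, 59305 of them not controls. The authors deposited linear intensity values made with Agilent Feature Extraction (version 11.5.1.1 in the submitters' processing notes) and, per the file headers, background-subtracted and detrended within the array. They also deposited per-spot flags (0 or 1) and a value table with the same intensity times 1 factor per array (1.06, 0.779 and 0.902 for the p53 tumour and tumours #2 and #3, medians 64.2, 54.2 and 43.5). What set the factors is not given in the sources used here.

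The processed signal was divided by the array's 75th percentile (599, 703 and 548) and taken as log2. Spots flagged as outliers (113 to 128 per array) were left out and spots of 1 probe averaged. Probes were named through RefSeq accessions in a supplied gene table of GRCm38.p6, used for names only since the array's build is mm9 (32994 of 56605 probes, 22908 genes). Each gene is represented by the probe of highest mean log2 level. The 15240 genes that were well above background in any tumour were tested. limma 3.58.1 in R 4.3.3 compared the genotypes with Benjamini-Hochberg adjustment. The fit has 1 residual degree of freedom (3.25 in all with the prior) and assumes that the lone p53 array varies like the LSD1 arrays. Tested on simulated data with the spread of the LSD1 arrays, it called 0 of 50 among 15240 genes at each shift of 1, 2, 4 and 6 log2. Counts by size require the brighter side to be well above background. The members and lists were chosen with earlier results of these data known. Named genes are all members, all measured globins, and in each other pathway list the 3 genes with the largest difference between the LSD1 tumours and the 3 with the largest mean difference from the p53 tumour. Of the markers, those not above background and the 2 of each list with the largest difference between the LSD1 tumours are named. Some genes that the rule names are not reported here. Alas1, Gpi1, Ikzf1, Kit, Cd163, Mcpt8, Prss34, Tlx1, Nkx2-5 and Cd3e were chosen after their values were seen. Alternatives were quantile normalization, normexp (offset 50) on the median spot and background intensity, the authors' table, other filters and probe rules, a 1.5-fold threshold, and each LSD1 array left out.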

Additional observations from a re-analysis of the deposited data

How the results depend on the processing

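Precision is limited by 1 array per tumour. The counts of members at least 2-fold higher in tumour #3, against tumour #2 or the p53 tumour, stayed within 1.5 times of 30 under quantile normalization, normexp, the authors' value table, other filters, the median probe, a 1.5-fold threshold and centring on the median of all tested genes, which was chosen after seeing the data. Against the p53 tumour the count was lowest with quantile normalization (22) and the authors' table (23). Scaling moved the median of all tested genes in tumour #3 from 0.16 to -0.20 with the authors' table. The count at least 2-fold lower in tumour #2 went from 1 to 3 with quantile normalization and with the authors' table, and to 8 at 1.5-fold. At 1.5-fold, 1 member (Tfrc) was higher in tumour #2 and in both LSD1 tumours. The share of all tested genes at 1.5-fold is not given here, so the 1.5-fold counts of members have no baseline. Leaving out 1 LSD1 array leaves values with no test: members at least 2-fold higher then numbered 0 to 30 (30 without tumour #2, which is also the value with slide as a block) and at least 2-fold lower 0 to 1. Klf1's limma difference of 0.93 ranged from -0.17 without tumour #3 to 2.03 without tumour #2. limma called 0 members under each setting. No paired analysis was possible because the p53 array carries no replicate number that an LSD1 array shares. The slide block compares the p53 tumour with tumour #3 within slide 1 and leaves no residual degrees of freedom.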

Other observations

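Genes outside the lists were also found near the members. A window from the 10th to the 90th percentile of the members' differences from the p53 tumour (-0.77 to 0.05 in tumour #2, 1.05 to 1.78 in tumour #3) held 20 members and, in all, 380 of 15240 tested genes (2.49%). The window was set after the values were seen. Among genes on no list and above background on all arrays, those nearest the members' medians were Slc22a4, a carrier of ergothioneine, at -0.36 and 1.47 in tumours #2 and #3, the elastin interface gene Emilin2 at -0.37 and 1.53, the quinone reductase gene Nqo1 at -0.28 and 1.49, the secreted phospholipase gene Pla2g12a at -0.32 and 1.42 and the lipid kinase gene Pip5k1b at -0.29 and 1.54. The retinaldehyde dehydrogenase gene Aldh1a1 stood at -0.37 and 1.58. Both differences share the p53 array, so nearness in the pair is a description only.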
